A study of Mus musculus with 11 samples.

Results

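The enzymes that build and cap the sugar chains of mucins and other glycoproteins and glycolipids were followed in the mouse colon mucosa under an inulin diet. They are 86 of the 18820 genes measured: all genes whose symbol starts with Galnt, B3gnt, B3galt, B4galt, B4galnt, Fut, Gcnt, St3gal, St6gal, St8sia, C1galt or Chst and that had a probe set with that symbol alone. Where a gene had several probe sets, as 7 of the 86 did, the one with the highest mean stood for it. The members were set in 10 classes by the linkage they make. They hold 18 enzymes of O-glycan initiation, 8 of O-glycan cores and branches, 6 of GlcNAc extension, 11 galactosyltransferases, 4 of the B4galnt family, 7 fucosyltransferases, 18 sialyltransferases in 3 classes and 14 sulfotransferases.

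Mucosal scrapings of the colon came from male C57BL/6J mice of 12 weeks, 1 array per mouse, after 10 days on a diet. A low fat diet was given to the control group (n = 5). The inulin group (n = 6) had 10% by weight of that diet, taken from its corn starch, exchanged for inulin, a fermentable plant fibre. All mice had eaten the low fat diet for 2 weeks before. The labels differ on whether colon was taken after an overnight fast or 4 h after a 1 g meal that ended it. Scrapings hold every cell type that comes off with the mucosa, so fewer cells of a type and less RNA per cell cannot be told apart.

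Mucin-type O-glycans start when a Galnt enzyme puts GalNAc on serine or threonine. That sugar is built into core structures by C1galt1, B3gnt6 and the Gcnt enzymes, lengthened by GlcNAc and galactose, and ended by fucose, sialic acid, GalNAc or sulfate. In the colon these chains make up much of the mass of the mucus, give it water and charge, and are food and attachment sites for bacteria.

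Array values are log2 values, and 8 members lay below the lower quartile of the array in all 11 mice: Galnt13, Galnt14, Galntl5, Galntl6, B3galt1, St8sia3, Chst7 and Chst9. Little signal can be read from these. Another 10 lay there in some mice, and 68 in none. Epithelial markers overlapped between the diets, with a mean over 10 genes from 11.21 to 11.29 in control and from 11.20 to 11.36 in inulin mice. So did the mean of 8 goblet cell markers, from 11.65 to 11.87 and from 11.61 to 11.77. Of these 8, Spink4 (-0.31, limma p 0.0094) and Clca1 (-0.15, limma p 0.040) were lower at an unadjusted p under 0.05, a rule that 7.19% of all genes met. Higher at that p, as were 6.34% of all genes, was Krt20 of the epithelial list (0.30, limma p 0.0028). So were Tmigd1 (0.67, limma p 0.00010) and Guca2a (0.20, limma p 0.0021) of 9 colonocyte markers. Of those 9, 6 had higher and 3 lower values, with a mean from 11.354 to 11.509 in control and from 11.355 to 11.786 in inulin mice. Markers of other tissue reached further under inulin. The mean of 11 fat cell markers ran from 5.37 to 5.81 in control and from 5.48 to 7.81 in inulin mice, highest in inulin 5, 4 and 2. That of 9 pancreas markers ran from 5.38 to 6.76 in control and reached 10.05 in inulin 3. Of these 9, 7 had higher values under inulin and 2 lower. The 2 were Clps (-0.69, limma p 0.018, control mean 10.31) and Cela1 (-0.15, limma p 0.63, control mean 8.46). Markers of some secretory cells had lower values under inulin. Of 9 tuft cell markers all 9 did, 6 with an unadjusted limma p under 0.05 and 1, Gnat3, past the threshold adjusted over all genes. Their mean ran from 6.28 to 6.59 in control and from 5.92 to 6.24 in inulin mice, without overlap. Of 7 deep crypt secretory cell markers all 7 had lower values, 5 at that unadjusted p and 0 past the adjusted threshold, with a median difference of -0.77 and a mean from 10.80 to 11.06 in control and from 10.10 to 10.92 in inulin mice. Spink4 and Agr2 are in both the deep crypt and the goblet cell list. The part of the colonocyte, tuft cell and deep crypt lists in the members' values was not tested. The mean of Hoxb13 and Hoxa13, homeobox genes of the distal colon, ran from 8.79 to 9.40 in control mice. It was 7.67 in inulin 4, 8.34 in inulin 2 and 8.52 in inulin 1, and from 8.99 to 9.38 in the other inulin mice. A list of 5 Hox genes of colon position, these and Hoxd10, Hoxd11 and Hoxd12, stood further apart, with a mean from 6.94 to 7.97 in control. It was 6.45, 6.56, 6.58, 6.36, 6.56 and 7.26 in inulin mice 1 to 6, so 5 of 6 lay below every control. Hoxd10 differed by -1.50, Hoxd11 by -1.45 and Hoxd12 by -0.69.

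No member passed the threshold of 0.05 on the limma p adjusted over all genes (Benjamini-Hochberg), which 17 genes (0.0903%) did. Differences below are therefore given as values, with unadjusted limma p, and none is called a change. At an unadjusted p under 0.05, 12 of 86 members (14%) were higher under inulin, against 6.34% of all genes. On the same rule 8 (9.3%) were lower, against 7.19% of all genes. In both directions together these are 20 members (23.3%) against 13.5%. With each array centred on its median these counts were 17 and 6, against 9.19% and 4.38% of all genes. The difference was above 0 in 52 members (60.5%) and in 51.4% of all genes. The median difference, inulin minus control on the log2 scale, was 0.04 over the members and 0.0039 over all genes. The median absolute difference was 0.11 against 0.072 over all genes, and the median SD between mice of a diet was 0.15 against 0.13.

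**Figure D1:**
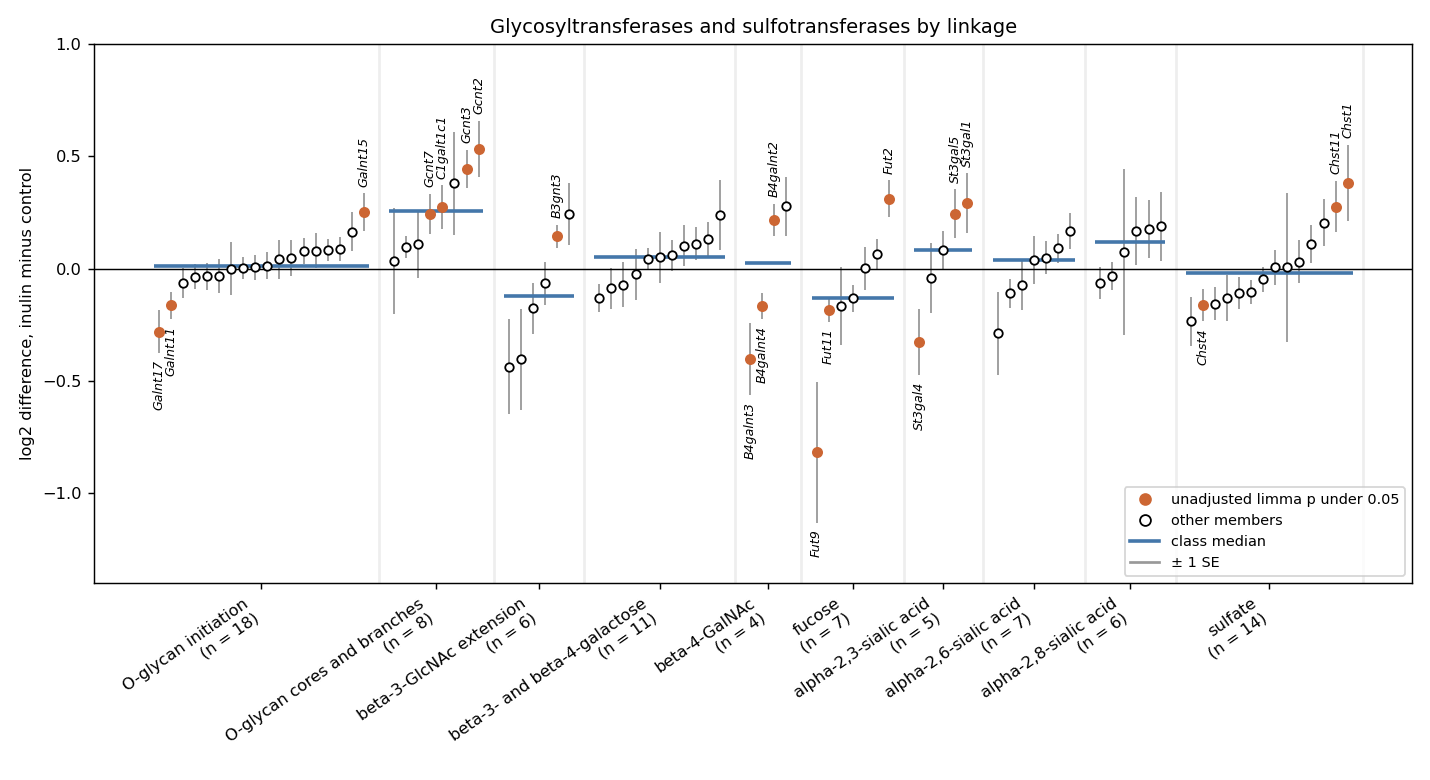
Log2 difference, inulin minus control, of each of the 86 members (y axis, bars ± 1 SE of limma) by linkage class (x axis), with the class median as a line. Filled points are the 20 members with an unadjusted p under 0.05; all 8 genes of O-glycan cores and branches lie above 0, and Fut9 lies lowest at -0.82.

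The core and branch enzymes were the class with the largest median difference, 0.26 on the log2 scale. The values of all 8 were higher under inulin, as were those of 51.4% of all genes. Of the 8, 4 had an unadjusted p under 0.05, all higher, against 6.34% of all genes. The classes were set with earlier results of these data known, so these counts add no separate support. In the other 78 members 8 were higher and 8 lower at that p, and their median difference was 0.0068. With the mean of the 5 Hox genes as a covariate the median of the class was 0.13.

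Gcnt3 makes the core 2 and core 4 branches of mucins and is known from mucus-secreting epithelia. Its control mice were at 10.69, 10.77, 10.50, 10.68 and 10.39, and the inulin mice ran from 10.90 to 11.22 with a median of 11.05. The groups did not overlap, as in 191 of all genes (1.01%) that were higher and 219 (1.16%) that were lower. The difference was 0.44 ± 0.085 (SE), a 1.36-fold level with a 95% interval on the log2 scale from 0.26 to 0.63 (limma p 0.00018, adjusted p 0.065). Its adjusted p lay between 0.020 and 0.81 over 12 other settings, under the threshold in 5 of them. It lay between 0.049 and 0.18 with each mouse left out, under the threshold without inulin 5. The adjusted p was highest with the mean of the 5 Hox genes as a covariate, where the difference was 0.21 (unadjusted p 0.15).

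Gcnt2 adds the branch that turns a linear lactosamine chain into the I blood group structure. It was at 7.15, 7.59, 7.24, 7.36 and 7.43 in the control mice and from 7.64 to 8.41 in inulin mice, with a median of 7.80. Again the groups did not overlap, and inulin 5 stood highest. The difference was 0.53 ± 0.13 (SE), or 1.45-fold (limma p 0.00097, adjusted p 0.11), and 0.43 without inulin 5, where the adjusted p was 0.049.

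RefSeq lists 3 starts for Gcnt2 on GRCm38.p6, and the arrays gave 1 probe set for the gene, so the starts cannot be told apart in these values. The 250 bases before each start are shown, with those of Fut11, which are the members with non-overlapping groups that have an entry, 1 in each direction. Gcnt3 is the third such member.
Gcnt2 start A (chr13:40859518-40859767, plus strand): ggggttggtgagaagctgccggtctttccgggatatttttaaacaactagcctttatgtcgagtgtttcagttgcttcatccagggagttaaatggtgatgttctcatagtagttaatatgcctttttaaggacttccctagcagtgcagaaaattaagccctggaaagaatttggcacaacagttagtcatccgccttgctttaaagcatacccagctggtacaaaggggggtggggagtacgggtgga
Gcnt2 start B (chr13:40886508-40886757, plus strand): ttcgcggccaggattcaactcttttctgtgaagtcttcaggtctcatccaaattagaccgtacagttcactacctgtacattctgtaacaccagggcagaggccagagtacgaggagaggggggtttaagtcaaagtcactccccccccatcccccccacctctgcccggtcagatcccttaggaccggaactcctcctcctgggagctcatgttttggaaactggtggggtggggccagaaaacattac
Gcnt2 start C (chr13:40917384-40917633, plus strand): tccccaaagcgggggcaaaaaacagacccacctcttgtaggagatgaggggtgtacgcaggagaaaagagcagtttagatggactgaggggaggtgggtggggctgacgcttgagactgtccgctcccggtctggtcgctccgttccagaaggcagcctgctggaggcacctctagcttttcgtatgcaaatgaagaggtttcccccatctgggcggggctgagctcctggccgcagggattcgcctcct
Fut11 (chr14:20694718-20694967, plus strand): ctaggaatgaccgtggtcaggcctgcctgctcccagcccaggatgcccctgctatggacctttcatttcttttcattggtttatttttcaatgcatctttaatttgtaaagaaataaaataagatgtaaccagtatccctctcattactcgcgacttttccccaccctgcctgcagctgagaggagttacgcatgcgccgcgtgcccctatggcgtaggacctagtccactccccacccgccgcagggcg
These windows were searched on both strands for the PPAR half-site (AGGTCA), a form of the hypoxia core (ACGTG) and the CDX motif (TTTATNG). None of the 4 held any of these letters, hence no capitals. The form GCGTG of the hypoxia core was not searched, and the Fut11 window holds it. In the same window of 32851 RefSeq starts the shares were 14.0%, 16.6% and 9.8%. Of the 85 starts of 65 members in the table, 7, 17 and 3 held a match. The lack of a match says only that these letters are not in the window.

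C1galt1c1, the chaperone that C1galt1 needs to fold, and Gcnt7, a Gcnt family member, were the other genes of this class with an unadjusted p under 0.05. C1galt1c1 went from a control mean of 6.82 ± 0.15 (SD, n = 5) to 7.09 ± 0.20 (SD, n = 6) under inulin (limma p 0.015). Inulin 5, at 6.72, fell among the controls, whereas the other inulin mice lay from 7.08 to 7.29. Without inulin 5 the difference was 0.35. Gcnt7, close to the lower quartile of the arrays, differed by 0.24 ± 0.089 (SE). C1galt1, which makes core 1, differed by 0.10 ± 0.049 (SE), and its SD within diets was among the smallest of the members. B3gnt6, which makes core 3 and is known from colon goblet cells, differed by 0.38 ± 0.23 (SE, limma p 0.12), with inulin 5 at 8.01, below every control, and the other inulin mice from 9.01 to 9.23. Gcnt1, the core 2 enzyme of many tissues, differed by 0.11 and Gcnt4 by 0.03.

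**Figure D2:**
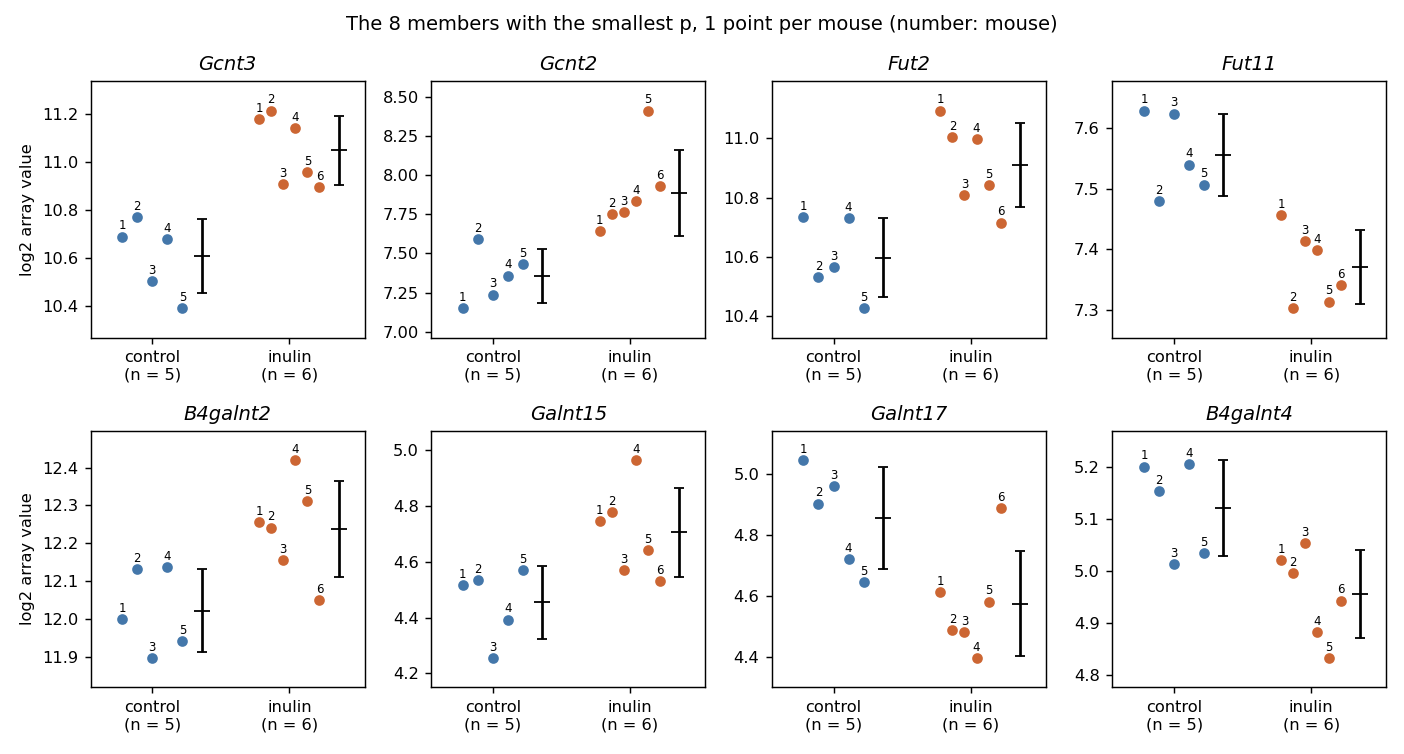
Log2 array values of the 8 members with the smallest p (y axis), 1 point per mouse with its number, for control (n = 5) and inulin (n = 6) on the x axis, with the mean ± SD beside the points. The diets do not overlap for Gcnt3, Gcnt2 and Fut11.

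The enzymes of O-glycan initiation had a median difference of 0.0099 over the 18, and 15 of them did not reach an unadjusted p of 0.05. Galnt3, Galnt4, Galnt7 and Galnt12, which are known from the digestive tract, and Galnt6 and Galnt10 differed by between 0.01 and 0.08, and Galnt1 and Galnt2 by -0.04 and 0.0026. Galnt15 was at 4.52, 4.53, 4.26, 4.39 and 4.57 in control and from 4.53 to 4.96 in inulin mice (median 4.69). The groups overlapped, and the difference was 0.25 ± 0.084 (SE, limma p 0.011). Galnt17 went the other way, at 5.05, 4.90, 4.96, 4.72 and 4.65 in control and from 4.40 to 4.89 in inulin mice (median 4.54), of which only inulin 6 lay within the control range. Its difference was -0.28 ± 0.095 (SE, limma p 0.011). Galnt11 differed by -0.16 ± 0.061 (SE, limma p 0.019), but its second probe set, not used here, differed by 0.12 ± 0.12 (SE). The mean of its probe sets differed by -0.02 (limma p 0.71).

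B3gnt3, which extends core 1 chains, was higher in inulin mice by 0.14 ± 0.052 (SE, limma p 0.016), at 10.99 ± 0.064 (SD, n = 5) against 11.13 ± 0.071 (SD, n = 6). None of the 11 galactosyltransferases had an unadjusted p under 0.05, and their differences ran from -0.13 to 0.24. B4galt1, the common enzyme of lactosamine, differed by -0.07 ± 0.098 (SE), B4galt3 by -0.13 ± 0.063 (SE), and B3galt5, which makes type 1 chains in gut epithelium, by 0.05 ± 0.11 (SE). B3galt2 had the largest difference of the class at 0.24 ± 0.16 (SE). B3gnt5, which starts the lacto-series of glycolipids, and B3gnt7, which extends keratan sulfate and related chains, differed by -0.44 ± 0.21 (SE) and -0.40 ± 0.22 (SE), without an unadjusted p under 0.05.

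The B4galnt enzymes split. B4galnt2, which makes the Sda antigen that colon mucins and glycolipids carry, was at 12.00, 12.13, 11.90, 12.14 and 11.94 in control and from 12.05 to 12.42 in inulin mice (median 12.25). Only inulin 6 lay within the control range, and the difference was 0.22 ± 0.072 (SE, limma p 0.010). B4galnt1, the GM2 ganglioside synthase, differed by 0.28 ± 0.13 (SE, limma p 0.056). The second probe set of B4galnt1 differed by 0.11 (limma p 0.40), and the mean of its probe sets by 0.19 (limma p 0.12). The enzymes that put GalNAc on GlcNAc went lower. B4galnt4 was at 5.20, 5.15, 5.01, 5.20 and 5.03 in control and from 4.83 to 5.05 in inulin mice (median 4.97), a difference of -0.17 ± 0.059 (SE, limma p 0.015) with overlap. B4galnt3 was at 9.08 ± 0.31 (SD, n = 5) and 8.68 ± 0.31 (SD, n = 6), a difference of -0.40 ± 0.16 (SE, limma p 0.028). Its second probe set differed by 0.02 (p 0.81), and the mean of its probe sets by -0.19 (p 0.12). The unadjusted p was above 0.05 without control 2, control 3, control 5, inulin 2 or inulin 4.

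Fucosyltransferases also went both ways. Fut2, which makes the H antigen of gut mucins and whose loss gives the non-secretor type, was at 10.73, 10.53, 10.56, 10.73 and 10.43 in control. Inulin mice ran from 10.72 to 11.09 (median 10.92), and only inulin 6 lay within the control range. The difference was 0.31 ± 0.081 (SE), or 1.24-fold (limma p 0.0020, adjusted p 0.14). Fut11, a member of the family known to put fucose on proteins of the secretory pathway, was at 7.63, 7.48, 7.62, 7.54 and 7.51 in control and from 7.30 to 7.46 in inulin mice (median 7.37). It was the only member whose values were lower without overlap, 1.16% of the members and 1.16% of all genes. The difference was -0.18 ± 0.051 (SE, limma p 0.0031, adjusted p 0.16). Its second probe set differed by -0.25 ± 0.14 (SE, limma p 0.089), with means of 3.97 and 3.72, close to the lower quartile of the arrays.

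Fut9, which makes the Lewis x structure, had the largest difference of all members, -0.82 ± 0.31 (SE), or 0.568 of the control level (limma p 0.022, adjusted p 0.28), and a wide spread. Control mice were at 6.52, 5.74, 6.75, 5.58 and 6.51, and inulin mice from 4.65 to 6.36 (median 5.34). The groups overlapped. The unadjusted p was above 0.05 without control 1, control 3 or control 5. Fut8, the core fucose enzyme of N-glycans, and Fut4, another enzyme of Lewis x, differed by -0.13 ± 0.061 (SE) and -0.17 ± 0.17 (SE). The median difference of the 7 was -0.13.

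Among the sialyltransferases only enzymes of the St3gal family, which attach sialic acid to galactose, had an unadjusted p under 0.05. St3gal1, which caps core 1, was higher by 0.29 ± 0.13 (SE, limma p 0.046), though its second probe set differed by 0.08. St3gal5, the GM3 ganglioside synthase, was higher by 0.24 ± 0.11 (SE, limma p 0.043). With the fat cell and pancreas marker means as covariates St3gal5 differed by 0.07 (p 0.57) and St3gal1 by 0.09 (p 0.57), and without inulin 3, 4 and 5 by 0.10 (p 0.30) and 0.20 (p 0.23). St3gal4, which caps lactosamine, differed by -0.33 (SE 0.15, limma p 0.045), with inulin 5 at 11.57 above every control and the rest of its group from 10.61 to 11.19. With each mouse left out in turn, an unadjusted p under 0.05 stayed in 2 of 11 fits for St3gal5, 3 for St3gal1 and 3 for St3gal4. Without inulin 3 St3gal5 differed by 0.16, the smallest of the 11. St3gal3 was at 9.89 and 9.79 in inulin 1 and 4 and from 10.50 to 10.78 in the rest of the group, while the controls lay from 10.26 to 10.48. Of the St6gal, St6galnac and St8sia genes, 0 of 13 had an unadjusted p under 0.05. St6galnac1, the enzyme of the sialyl-Tn antigen, differed by 0.04 ± 0.11 (SE) and St6gal1 by 0.05 ± 0.072 (SE). The largest differences in these classes were -0.29 for St6galnac4 and 0.19 for St8sia4. Without inulin 4 that of St6galnac4 was -0.17, and without inulin 3 it was -0.39 with an unadjusted p of 0.043. That of St8sia4 was 0.05 without inulin 5.

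Sulfotransferases had a median difference of -0.02, with 7 higher and 7 lower. Chst1, which sulfates galactose of keratan sulfate, was higher by 0.38 ± 0.17 (SE, limma p 0.042), with 5.60, 5.37 and 5.19 in inulin 5, 4 and 2, the mice with the most fat cell marker signal, against 4.59 to 4.78 in control. Chst11, a chondroitin 4-sulfotransferase, was higher by 0.28 ± 0.11 (SE, limma p 0.030). Chst4, which sulfates GlcNAc of mucin-type chains, differed by -0.16 (SE 0.073, limma p 0.045). Chst5, another GlcNAc 6-sulfotransferase, differed by 0.11 ± 0.085 (SE). With each mouse left out, an unadjusted p under 0.05 stayed in 4 of 11 fits for Chst1, 7 for Chst11 and 2 for Chst4.

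Several members varied more between mice of a diet than between diets. The SD of St8sia5 was 0.66 in control and 0.76 in inulin mice, beside a difference of 0.07. Chst3, a chondroitin 6-sulfotransferase, was at 5.74 in inulin 5 and from 3.64 to 3.97 in the rest of that group, beside a difference of 0.0069. To set the members against colon position, a slope on the mean of Hoxb13 and Hoxa13 was fitted within diets by limma, a test chosen after the values were seen. It passed the adjusted threshold over all genes in 9 of 86 members (10.5%), against 2.09% of all genes. Higher with the distal genes were 7 members (1.06% of all genes): B3gnt5 (slope 0.77 ± 0.095 SE, adjusted p 0.0019), Fut4 (0.58), B3gnt7 (0.75), St6galnac4 (0.62), B4galnt3 (0.53), Gcnt1 (0.48) and St8sia5 (1.18), a sialyltransferase of gangliosides. Lower with them were 2 (1.03% of all genes), Gcnt4 (-0.84 ± 0.12 SE, adjusted p 0.0047) and B4galnt1 (-0.44).

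B3gnt5 was at 6.80, 7.47 and 7.48 in inulin 4, 2 and 1, and from 7.72 to 8.37 in the other 8 mice of both diets. St8sia5 was at 6.21 in control 4, the control with the lowest Hox mean, and at 6.33 and 6.40 in inulin 4 and 2, against 7.12 to 8.03 in the others, among them inulin 1 at 7.67, whose Hox mean lay below that of control 4. Fut9 was at 4.65 in inulin 4 and 5.58 in control 4, but inulin 5, with a Hox mean of 9.11, was at 4.78 as well, and the Fut9 slope did not pass (adjusted p 0.16). Without inulin 5 it did (slope 1.12, adjusted p 0.0010), as 1 of 12 members (4.65% of all genes). The calls rest on the mice at the ends: without inulin 4 no member passed (0.223% of all genes) and without inulin 6 only 2 (0.951% of all genes). The 9 slopes kept their sign with each mouse left out, with unadjusted limma p up to 0.0046. They were picked for a small p in these same mice, so this adds no separate support.

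**Figure D3:**
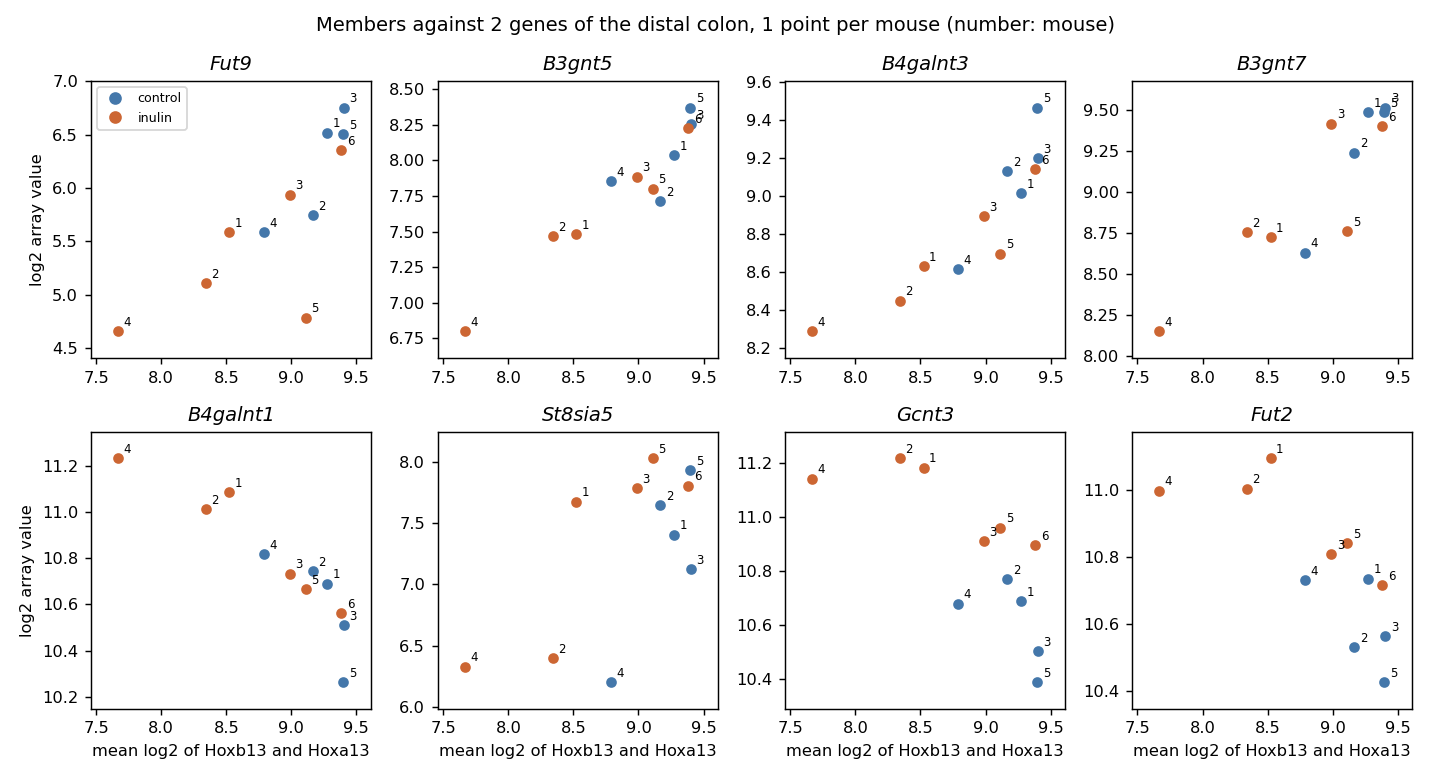
Log2 array values of 8 members (y axes) against the mean log2 value of Hoxb13 and Hoxa13 (x axes), 1 point per mouse with its number, control in blue and inulin in orange. B3gnt5, B4galnt3 and B3gnt7 are lowest in inulin 4, B4galnt1 is highest there, and Gcnt3 is higher in every inulin mouse than in every control.

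The mean of Hoxb13 and Hoxa13 lay below every control in inulin mice 1, 2 and 4, so diet differences of these members were set beside a fit with it as a covariate. The B4galnt3 difference went from -0.40 to -0.12, that of B4galnt1 from 0.28 to 0.04, that of B3gnt5 from -0.44 to -0.02 and that of Fut9 from -0.82 to -0.36. Of the 20 members with an unadjusted p under 0.05, 7 kept it there: Gcnt3 (0.33), Gcnt2 (0.61), Fut2 (0.21), Fut11 (-0.19), B3gnt3 (0.20), B4galnt4 (-0.18) and Galnt11 (-0.17). In all, 8 members were higher and 5 lower in that fit, against 5.56% and 6.71% of all genes. With the fat cell and pancreas marker means as covariates 7 were higher and 4 lower (5.9% and 5.24% of all genes), and 8 of the 20 kept their p. Gcnt3 (0.46), Fut2 (0.31), Fut11 (-0.17), B3gnt3 (0.20) and C1galt1c1 (0.45) were among them, Gcnt2 was not (0.34, p 0.057), Fut9 was at -0.18 (p 0.49), and Chst1 went from 0.38 to -0.07. Without inulin 3, 4 and 5, 9 were higher and 7 lower (6.82% and 6.6% of all genes), and 10 of the 20 kept their p. These fits have fewer mice or more terms, and Gcnt3, Fut2, Fut11, B3gnt3 and Galnt11 had an unadjusted p under 0.05 in all 3. For Galnt11 they use a single probe set, and the mean of its probe sets in all 11 mice differed by -0.02 (limma p 0.71).

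In a fit with the mean of the 5 Hox genes as a covariate, added after the values were seen, 6 members were higher and 3 lower, against 3.6% and 3.17% of all genes, and limma called 0 genes at the adjusted threshold. The list mean itself moved with the diet, since 5 of 6 inulin mice lay below every control, and the parts of diet and list cannot be told apart for most mice. Of the 20 members, 4 kept an unadjusted p under 0.05 with the same sign: Gcnt2 (0.60), Fut11 (-0.22), B3gnt3 (0.27) and B4galnt4 (-0.25). Fut2 differed by 0.03 (p 0.80), and B4galnt3 by 0.35 (p 0.034), the other way than without the covariate. The Fut9 difference also had the other sign, 0.37 (p 0.37).

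**Figure D4:**
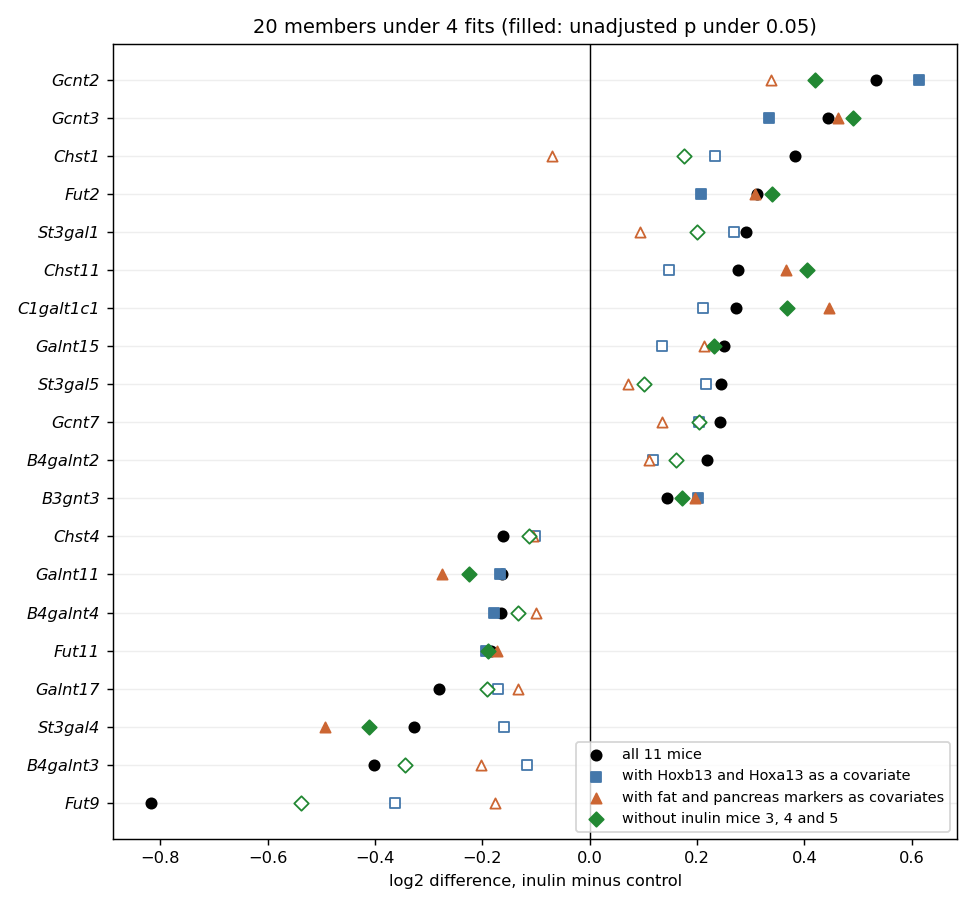
Log2 difference, inulin minus control (x axis), of the 20 members with an unadjusted p under 0.05 (y axis), in all 11 mice, with a Hox covariate, with fat and pancreas marker covariates, and without inulin 3, 4 and 5; filled symbols have an unadjusted p under 0.05 in that fit. Gcnt3, Fut2 and Fut11 stay filled in all of them, whereas Fut9 and B4galnt3 move towards 0.

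The proteins and sugars that the enzymes work on were read from lists of related genes. Of 13 measured mucin backbone genes, Muc2, the gel-forming mucin of the colon, differed by 0.02 ± 0.048 (SE), Muc3 by 0.04, Muc4 by 0.11 and Muc13 by 0.03. Muc1, a transmembrane mucin, differed by -0.71 (SE 0.22, limma p 0.0073), and Emcn, a sialomucin of blood vessels that is also in the endothelial list, was higher by 0.47 (SE 0.17, limma p 0.016). Of 8 endothelial markers all 8 had higher values under inulin, against 51.4% of all genes. The same held for all 8 smooth muscle, all 8 fibroblast and all 11 fat cell markers.

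In sugar nucleotide synthesis 4 of 27 genes were higher at an unadjusted p under 0.05, a rule that 6.34% of all genes met, and 0 lower. They were Cmah, which turns CMP-Neu5Ac into CMP-Neu5Gc (0.80 ± 0.20 SE, limma p 0.0014), the phosphoglucomutase gene Pgm2 (0.22 ± 0.050 SE, limma p 0.00065), Ugp2, which makes UDP-glucose (0.17), and Fpgt of the fucose salvage route (0.10). Their groups did not overlap except for Ugp2, a trait of 1.01% of all genes in the higher direction. These genes were picked for a small p in the same mice, so this adds no separate support. Of 10 transporters of sugar nucleotides into the secretory pathway, Slc35d1 (0.52 ± 0.14 SE, limma p 0.0024) and Slc35d2 (0.27 ± 0.11 SE) were higher and 0 lower. In sulfate activation Papss2, which makes the sulfate donor PAPS, was higher by 0.24 ± 0.057 (SE, limma p 0.0010), and Bpnt2, a phosphatase of the spent donor, by 0.24 ± 0.11 (SE). Papss1, the other PAPS synthase, differed by -0.15 (SE 0.061, limma p 0.025).

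Of 14 genes for enzymes that remove sugars or sulfate, 5 were higher at that p and 0 lower. Sulf2, which trims sulfate from heparan sulfate, differed by 0.59 ± 0.11 (SE, limma p 0.00013, adjusted p 0.057), the lysosomal genes Galns, Neu1 and Gla by 0.20, 0.23 and 0.16, and Fuca2, a secreted fucosidase, by 0.15. None of the genes of these 5 lists passed the adjusted threshold.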

How the data were processed

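The deposited table of the authors holds log2 values. Per the submitters' processing notes they come from RMA (robust multi-array average): background corrected, arrays made alike, probes summarised per probe set. Making arrays alike removes a shift shared by most genes. RMA version and genome build: not given in the sources used here. Values ran from 1.46 to 13.7 and array medians from 5.38 to 5.46. The number of arrays (11) limits the precision.

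Of 35556 probe sets, 21218 had 1 symbol in the platform annotation, 1881 several and 12457 none. This left 18820 genes, of which 86 matched the rule through 94 probe sets. Fut1, Galnt5, B3gnt4, B3gntl1, B4galt2, St3gal6 and St6galnac2 are not analysed here. All 86 matched RefSeq by Entrez number.

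Differences were fitted with limma 3.58.1 in R 4.3.3 (lmFit, eBayes, all 11 mice, no covariate) and adjusted by Benjamini-Hochberg over 18820 genes. The steps were tested on simulated data. Members, classes and lists were chosen with earlier results of these data known. Named are members with an unadjusted p under 0.05, the largest difference of each class, and list genes on the same rule. Values by mouse were due for the 8 members with the smallest p, and the Hox slope test, the covariate of 5 Hox genes and all other named members were chosen after their values were seen. The labels do not give cages or batches, so none was tested.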

Additional observations from a re-analysis of the deposited data

Results flagged for a closer look

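In groups of 5 or 6 mice, 13 of 172 groups over the 86 members held a mouse far from the rest of its diet, where chance gives about 1 in 20, and inulin 5 was the mouse in 7 of the 13. The share over all genes was not taken, so neither count is read as a trait of these members. Lower in inulin 5 were B3gnt6 (8.01, the other inulin mice from 9.01 to 9.23), C1galt1c1 (6.72, the others from 7.08 to 7.29) and Chst9 (2.42, the others from 2.53 to 2.57, all near the bottom of the arrays). Higher in inulin 5 were Chst3 (5.74, the others from 3.64 to 3.97), St8sia4, a polysialic acid enzyme also known from immune cells (5.15, the others from 4.20 to 4.46), St8sia6 (4.01, the others from 3.16 to 3.32) and B4galt5 (9.41, the others from 8.84 to 9.03). Inulin 5 also had the highest means of fat cell markers (7.81), fibroblast markers (6.28) and B and plasma cell markers (7.02) of the 11 mice. It was highest as well for epithelial (11.36), colonocyte (11.79), smooth muscle (5.61), endothelial (5.47) and T cell (5.54) markers. For goblet, deep crypt secretory, tuft cell and pancreas markers it was not. The part of these lists in the values of inulin 5 was not tested. In other inulin mice, Chst2 was at 4.89 in inulin 6 (the others from 5.26 to 5.49) and Galntl5 at 3.41 in inulin 1 (the others from 2.97 to 3.12). Among controls, Fut4 was at 7.92 in control 4 (the others from 8.51 to 8.63), Chst12 at 5.08 in control 3 (5.43 to 5.50), B3galt6 at 5.44 in control 2 (5.73 to 5.83) and Galnt18 at 5.00 in control 5 (4.34 to 4.49).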

How the results depend on the processing

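Main counts were 17 genes and 0 members past the adjusted threshold, and 12 members higher and 8 lower at an unadjusted p under 0.05. Genes and members past the threshold were 42 and 1 with a variance prior following intensity, 245 and 2 with array weights, 52 and 1 with low values left out, 62 and 1 with median centring, 33 and 0 without inulin 3, 4 and 5, 26 and 0 with fat and pancreas covariates, and 0 and 0 with the 5 Hox genes as a covariate, added after the values were seen. The robust prior, quantile normalisation and averaging probe sets left these counts within 1.5 times or at 0. The members were Gcnt3 each time, with Gcnt2 under array weights. Members lower were 14 with array weights (8.79% of all genes) and 5 with the Hox covariate (6.71%). With fat and pancreas covariates 4 were lower (5.24%) and 7 higher (5.9%). With the 5 Hox genes 6 were higher and 3 lower (3.6% and 3.17% of all genes). Leaving out each mouse gave 7 to 98 genes and 0 to 2 members past the threshold. It gave 8 to 16 members higher (4.73% to 7.52% of all genes) and 4 to 11 lower (5.74% to 8.42% of all genes). Members with a Hox slope past the threshold were 0 to 12 (0.223% to 4.65% of all genes). Members lower were 4 without control 3 (5.75% of all genes), and 5 without inulin 2 (6.4%) or inulin 4 (7.05%). The members past the threshold without inulin 5 were Gcnt2 and Gcnt3.

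With the replicate block 95 genes and 2 members (Gcnt3 and Fut9) passed, and 18 members were higher and 13 lower, against 7.36% and 8.12% of all genes. Inulin 6 has no control of its number, so the block fit draws no diet difference from inulin 6. Differences in the block fit equal those without that mouse, as -0.56 for B3gnt5 in both. Without inulin 6 and with no block, 50 genes and 0 members passed. There 16 members were higher and 11 lower, against 7.09% and 8.42% of all genes. The 5 shared replicate numbers give correlations of deviations from -0.10 to 0.22, and 2 of 5 control mice correlate best with their own number. With 5 pairs, and no cages or batches in the labels, it cannot be told whether mice of a number share anything else. Of the named differences these reversed: B3galt2 (-0.010) and St6galnac4 (0.044) with the Hox covariate, and Chst1 (-0.070) and St8sia4 (-0.096) with fat and pancreas covariates, and with the 5 Hox genes B3galt2 (-0.16), B3gnt5 (0.32), B4galnt2 (-0.032), B4galnt3 (0.35), Chst1 (-0.00051), Fut9 (0.37), St3gal5 (-0.063), St6galnac4 (0.42) and St8sia4 (-0.15). The cause was not tested. Over the named members, leaving out each mouse kept 206 of 264 differences on their side of the unadjusted threshold. Differences of Gcnt3, Gcnt2, Fut2, Fut11, B4galnt2, B4galnt4, Galnt11, Galnt15, Galnt17, Gcnt7, C1galt1c1 and B3gnt3 kept an unadjusted p under 0.05 whichever mouse was left out. For Galnt11 this covers the probe set used, while the mean of its probe sets in all mice differed by -0.02 (limma p 0.71). Members below the lower quartile of the arrays have too little signal to show a difference.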
